A study of Mus musculus with 6 samples.

Results

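The mitochondrial ribosome is the protein-making machine of the mitochondrial matrix, and all of its protein subunits are encoded in the nucleus. Its genes carry symbols that start with Mrpl for the large subunit or Mrps for the small subunit, followed by a number and, in some cases, a letter. Every gene whose symbol has that form was taken as a member, which gave 78 of the 55401 genes listed in each library. Of these, 51 were assigned to the large subunit and 26 to the small subunit. Mrps36 was left unplaced, since its product is now known as a component of the 2-oxoglutarate dehydrogenase complex. All 78 were annotated as protein coding, they lay on 17 chromosomes with 11 on chromosome 11, and 0 lay on X or Y.

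The samples were 6 lines of primary cancer cells from C57BL/6 mice, made by mincing tumours, digesting them with enzymes and growing the cells in medium with serum, and their RNA was sequenced. For 3 of the lines the host was labelled Rag1KO (replicates 1, 3 and 7) and for the other 3 it was labelled WT (replicates 2, 4 and 6). Rag1 is needed to assemble the genes of T and B cell receptors, so mice lacking it have no adaptive immune system, and the comparison sets cancer cells from hosts without one against cancer cells from hosts with one. The host's age, the tumour type, any agent used to induce the tumour and the number of animals are not given in the sources used here, so a p-value here covers only the spread among these samples, which may be partly technical.

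Mitochondrial ribosomes translate only the mRNAs made from mitochondrial DNA, which encode core subunits of the respiratory chain and of ATP synthase. They descend from a bacterial ribosome, have lost much of its RNA and have gained proteins that bacteria lack, so that part of the family has bacterial homologues and part is specific to mitochondria. Cells that respire depend on them, and their genes are known to be transcribed broadly, together with other nuclear genes for mitochondrial proteins.

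Reads assigned to genes numbered 55409583 to 62998051 per library. Values are normalized counts, meaning reads divided by 1 size factor per library. Rag1 itself went against its label: it had 41, 109 and 183 reads in the lines labelled Rag1KO 1, 3 and 7, and 0 in each line labelled WT, where a count of 0 allows up to 3 reads. Counts for a whole gene cannot tell an intact transcript from the remains of a disrupted allele, and groups are called by their labels for this reason. Y-linked genes had reads in the 3 lines labelled Rag1KO and in WT 6, while Xist was high in WT 2 and WT 4, so the host label and a sex-linked difference cannot be told apart in most of the comparison. Without WT 6 they cannot be told apart at all, and every value given without that line carries this limit. Line WT 6 stood apart from the other lines. The 12 fibroblast and mesenchymal markers summed to 1447760 to 2303710 normalized counts in the lines labelled Rag1KO, and to 1598170, 2003650 and 495730 in WT 2, 4 and 6. The epithelial markers summed to 1762 to 6340 in the lines labelled Rag1KO, and to 4856, 2950 and 10.6 in WT 2, 4 and 6. Leukocyte and macrophage markers summed to 851 to 2634 in the lines labelled Rag1KO and 1365 to 5418 in the lines labelled WT, and endothelial markers to 306 to 1661 in the lines labelled Rag1KO and 49.3 to 1187 in the lines labelled WT. The 11 lymphocyte markers summed to 2.32 to 4.79 normalized counts in the lines labelled Rag1KO and 4.03 to 5.79 in the lines labelled WT, with 4 of the 11 at 0 in all 6 libraries. The part of these cell markers in the results was not tested. Most counts and medians over groups of members are therefore given with WT 6 and without it.

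Of the 78 members, 77 were detected well enough to test, with at least 323 reads in every library. Mrpl53, a mitochondrion-specific protein of the large subunit, was listed at 0 in all 6 libraries. In the annotation 88.0% of its exonic bases also belong to Gm42688, a gene on the same strand with a mean of 85.1 normalized counts, so a value of 0 for Mrpl53 does not show that the transcript is missing. Across the 77 tested members and 6 libraries the normalized counts ran from 374 to 5807.

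The promoters of the members differ in sequence, and 5 are shown as examples, for genes that later results name. Mrpl52 had the lowest p of the family, Mrpl17 and Mrpl58 had the lowest p among members with the NRF1 letters and the YY1 letters near the start, Mrps11 starts head to head with another member, and Mrps14 varied least between the lines. Each stretch runs 5′ to 3′ on the gene's own strand from 150 bases before to 30 bases after the RefSeq start (GRCm38.p6). Capitals mark matches on either strand to CCGGAAG (the ETS letters), to GCGCA and GCGC with any base between them (the NRF1 letters), to AANATGGCG (the YY1 letters) or to CACGTG (the E-box).
Mrpl52 (chr14:54426759-54426938, plus strand): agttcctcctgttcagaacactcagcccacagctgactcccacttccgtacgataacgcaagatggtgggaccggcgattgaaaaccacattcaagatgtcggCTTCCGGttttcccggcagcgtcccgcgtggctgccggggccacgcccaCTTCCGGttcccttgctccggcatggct
Mrpl17 (chr7:105811058-105811237, minus strand): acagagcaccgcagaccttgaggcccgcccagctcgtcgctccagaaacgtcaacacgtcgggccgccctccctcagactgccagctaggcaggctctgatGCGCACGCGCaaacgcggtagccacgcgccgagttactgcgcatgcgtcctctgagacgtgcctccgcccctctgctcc
Mrpl58 (chr11:115403602-115403781, plus strand): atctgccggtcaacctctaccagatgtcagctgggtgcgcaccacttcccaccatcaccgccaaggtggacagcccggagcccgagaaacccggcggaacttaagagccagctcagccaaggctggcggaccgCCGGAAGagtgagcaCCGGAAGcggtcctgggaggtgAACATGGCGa
Mrps11 (chr7:78782981-78783160, plus strand): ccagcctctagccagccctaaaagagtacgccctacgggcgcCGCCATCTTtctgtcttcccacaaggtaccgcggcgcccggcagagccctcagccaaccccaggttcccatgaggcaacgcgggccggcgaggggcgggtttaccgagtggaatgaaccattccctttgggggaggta
Mrps14 (chr1:160195065-160195244, plus strand): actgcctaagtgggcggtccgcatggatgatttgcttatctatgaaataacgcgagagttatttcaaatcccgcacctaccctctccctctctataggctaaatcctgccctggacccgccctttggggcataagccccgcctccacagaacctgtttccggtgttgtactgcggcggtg
Mrpl52 and Mrpl58 each held 2 ETS matches in these bases, and Mrpl58 also held a YY1 match just after its start, while Mrps14 held none of the 4 motifs. The same stretch of Mrpl23, which had the next lowest p after Mrpl52 and is not shown, also held none.

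ETS factors such as GABPA, NRF1 and YY1 are the transcription factors best known for binding the promoters of nuclear genes for mitochondrial proteins. RefSeq windows from 250 bases before to 50 bases after the start were available for 69 of the 78 members, and 50 of the 69 lay within 100 bases of the start of the GENCODE M21 gene. The ETS letters CCGGAAG occurred in 24 of the 69 windows, or 34.8%, against 18.0% of the 10592 tested genes with a window. The NRF1 letters occurred in 13 members, or 18.8%, against 10.3% of tested genes, and the YY1 letters in 11 members, or 15.9%, against 5.29%. At least 1 of these 3 motifs stood in 40 of the 69 windows, 58.0% against 29.6% of tested genes. The windows of 8 members held at least 2 of the 3, and 0 held all 3. The E-box CACGTG, which Myc binds, was found in 5 members, or 7.25%, against 10.1% of tested genes. GGGCGG, the GC box, stood in 34 members, or 49.3%, against 63.8%, and CCAAT in 27 members, or 39.1%, against 39.0%. Both strands were searched, and matches of different motifs overlapped in 1 member. Over all 27025 genes in the RefSeq table, whether expressed in these lines or not, the shares were 9.16% for the ETS letters, 4.81% for the NRF1 letters, 2.52% for the YY1 letters, 7.20% for the E-box, 36.0% for the GC box and 37.9% for CCAAT. A match shows only that the letters are in the window.

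**Figure D1:**
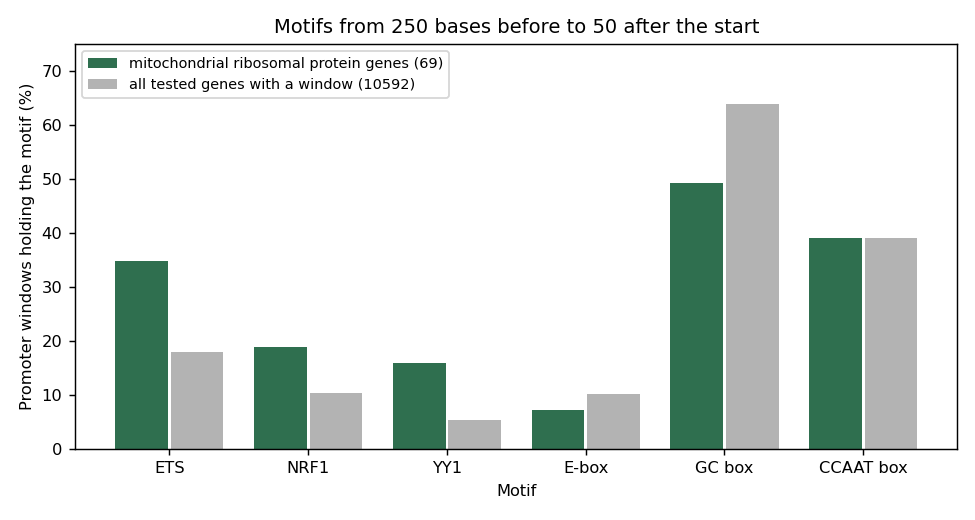
Share of promoter windows (%, y axis) that hold each motif (x axis), for the 69 members with a RefSeq window (green) and for all 10592 tested genes with one (grey). The green bar is above the grey one for ETS (34.8% against 18.0%), NRF1 (18.8% against 10.3%) and YY1 (15.9% against 5.29%), and below it for the E-box and the GC box.

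Levels of different members can be compared only per length, and here they are normalized counts per kilobase of the union of a gene's exons, as the mean of the 6 lines. The median member stood at 631 per kilobase. Mrpl54, a mitochondrion-specific protein of the large subunit, was highest at 3438 per kilobase, followed by Mrps6, a small-subunit protein with a bacterial homologue, at 2320. Next came Mrps21 of the small subunit at 1754, and the stalk proteins Mrpl12 at 1710 and Mrpl10 at 1666. The stalk of the large subunit is where translation factors dock, and Mrpl12 is also known to bind the mitochondrial RNA polymerase. The order at the top was not firm in every line. Mrpl54 ranged from 1548 to 6014 per kilobase across the 6 lines and Mrps6 from 1405 to 3788, so that these neighbours overlap, as do Mrps21, Mrpl12 and Mrpl10 among themselves.

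The lowest levels per kilobase belonged to Mrps35 at 123, Mrpl47 at 129, Mrpl48 at 156, Mrpl33 at 171 and Mrps25 at 175. Both ends of the order depend on annotated length. With the longest transcript in place of the exon union, the low members Mrps35, Mrpl47, Mrpl48, Mrpl33 and Mrps25 stood at 230, 170, 297, 457 and 189 per kilobase. The high members Mrpl54, Mrps6, Mrps21, Mrpl12 and Mrpl10 stood at 4696, 3189, 2657, 1990 and 1666. The ranks over the 77 tested members still followed each other (Spearman's rho = 0.947 across genes, which share libraries and are not independent).

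Some members share bases with other genes, which matters because the labels name a stranded library kit while the sources used here do not say whether reads were counted by strand. Exonic bases were shared with a gene on the opposite strand by 28 members, for at least 20% of the member's exonic bases in 7 of them. The largest such overlap was 69.8% of Mrps25, shared with Nr2c2, followed by 63.4% of Mrps34 with Mapk8ip3, 36.0% of Mrpl19 with Gcfc2 and 33.4% of Mrpl43 with Twnk. On the same strand 8 members shared exonic bases with another gene. Mrps6 shares 10.4% of its exonic bases with Slc5a3, a sodium and myo-inositol transporter gene that averaged 5436 normalized counts, and Mrps34 shares 37.0% with Nme3, which was at 0 in all 6 libraries. Levels of these members are uncertain to that extent.

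Most members varied little between the 6 lines. The SD of the log2 level across lines had a median of 0.256 over the 77 tested members, against 0.487 over all tested genes, and 70 of the 77 were below that median of all genes. The tested genes were not matched to the members by level, and the members had at least 323 reads in every library. A low SD was not particular to the family. In lists described below, the median SD was 0.232 for nuclear-encoded respiratory chain subunits and 0.232 for mitochondrial ribosome assembly factors. It was 0.263 for mitochondrial translation factors, 0.306 for mitochondrial tRNA synthetases and 0.343 for cytosolic ribosomal proteins. Mrps14, the small-subunit protein whose promoter is printed above, was the steadiest with an SD of 0.102. It had 1192, 1310 and 1359 normalized counts in the lines labelled Rag1KO and 1269, 1159 and 1381 in the lines labelled WT. The next steadiest were Mrpl27 with an SD of 0.117, Mrps7 with 0.123, Mrpl41 with 0.131 and Mrpl39 with 0.138. Mrps7 lies along the path of the mRNA in the small subunit, and Mrpl27 is the counterpart of bacterial L27.

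The 5 most variable members were Mrpl38 (SD 0.680), Mrpl54 (0.671), Mrpl24 (0.620), Mrps6 (0.537) and Mrpl20 (0.530). Mrpl38 had 1128, 1363 and 1327 normalized counts in the lines labelled Rag1KO and 1513, 1390 and 4145 in the lines labelled WT, so its spread came from line WT 6. Mrpl54 had 3239, 3120 and 1980 in the lines labelled Rag1KO and 4962, 2442 and 1277 in the lines labelled WT. The WT lines alone thus spanned the highest and the lowest value of Mrpl54. Apba3, whose start lies 26 bases from that of Mrpl54 on the other strand, had 3440, 3356 and 1916 normalized counts in the lines labelled Rag1KO and 3774, 2502 and 1263 in the lines labelled WT, with the same line highest and the same line lowest. Apba3 encodes an adaptor protein and is no mitochondrial ribosomal gene.

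Mrpl24, at the polypeptide exit site of the large subunit, had 2053, 2274 and 1862 normalized counts in the lines labelled Rag1KO and 1066, 2366 and 4047 in the lines labelled WT. Again both extremes fell in WT lines, and 26.3% of its exonic bases are shared with Rrnad1 on the other strand. Mrps6 had 5807, 2153 and 3212 in the lines labelled Rag1KO and 3925, 2300 and 3940 in the lines labelled WT, with Rag1KO 1 highest. Mrpl20 had 1278, 1842 and 2013 in the lines labelled Rag1KO and 2026, 813 and 1953 in the lines labelled WT, where WT 4 alone was low. These 4 members each differed more within a group than between the groups.

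**Figure D2:**
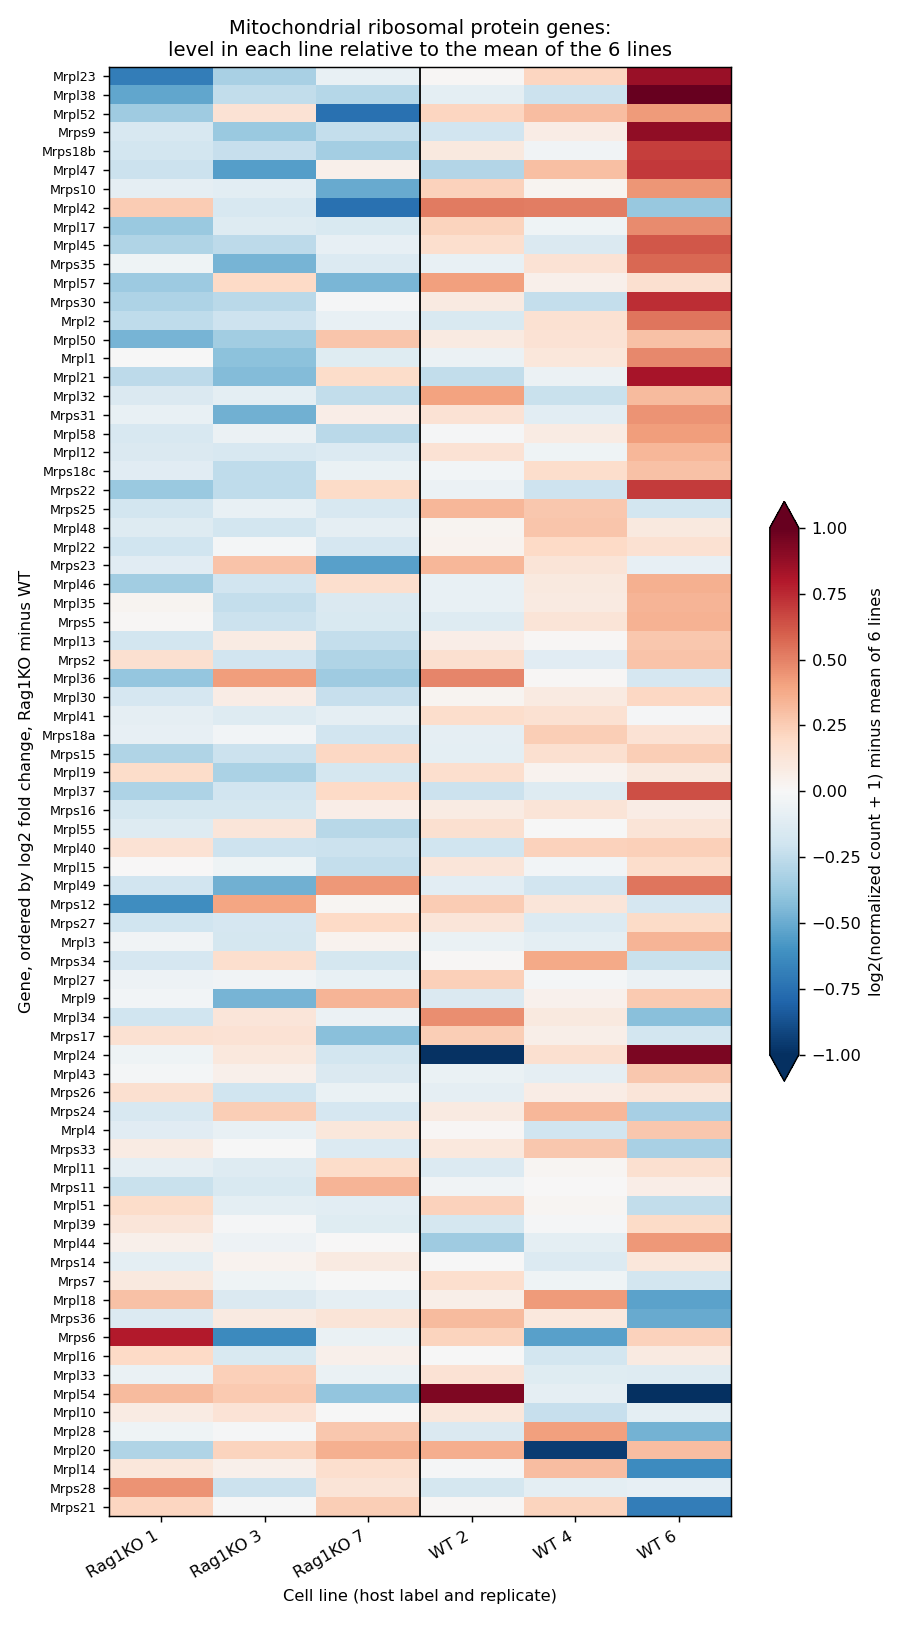
Level of each of the 77 tested members (rows, ordered by log2 fold change) in each line (columns), as log2(normalized count + 1) minus the mean of the 6 lines, with red above and blue below that mean and the scale ending at 1 in both directions. The column of WT 6 is the reddest, with 38 of the 77 members at their highest there, and also holds the deep blue cells of Mrpl54, Mrpl14 and Mrps21.

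Seen library by library, the family's summed level was lower in each line labelled Rag1KO than in each line labelled WT. It was 110704, 106371 and 106635 normalized counts in the lines labelled Rag1KO 1, 3 and 7, and 120760, 115829 and 132193 in the lines labelled WT 2, 4 and 6. As a share of all reads the groups overlapped, with 0.196%, 0.166% and 0.192% in the lines labelled Rag1KO and 0.190%, 0.202% and 0.241% in the lines labelled WT. In bulk RNA, fewer cells with a transcript and less transcript per cell cannot be told apart.

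WT 6 was the highest line for 38 of the 77 members, or 49.4%, against 27.4% of all tested genes. WT 2 was highest for 16, or 20.8%, against 14.6% of genes, and WT 4 for 10, or 13.0%, against 13.9%. Rag1KO 1, 3 and 7 were highest for 5, 3 and 5 members, against 12.7%, 16.2% and 15.2% of genes. Their shares of members were 6.49%, 3.90% and 6.49%, so that 64 members peaked in a line labelled WT. The lowest value lay in a line labelled Rag1KO for 55 members. Rag1KO 1, 3 and 7 were lowest for 22.1%, 26.0% and 23.4% of members, against 15.0%, 16.5% and 15.4% of genes. WT 6 was also the lowest line for 13 members, or 16.9%, against 30.2% of all tested genes. The order of the members' levels was less alike between WT 6 and any other line (Spearman's rho 0.709 to 0.788 over 77 genes in the 5 pairs) than between the other lines (0.847 to 0.931 in the 10 pairs), a description over genes that share libraries.

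The test over all genes asked of each member whether its level differed between lines labelled Rag1KO and lines labelled WT. With limma and Benjamini-Hochberg adjustment over 16137 genes, 0 of the 77 members passed an adjusted p of 0.05, and the lowest adjusted p was 0.850. The background was near 0 as well, since limma called 0.00620% of all tested genes, a single sex-linked gene. Without WT 6, limma called 0 members against 0.0310% of genes, which were 5 sex-linked genes. The other tools also called 0 members, edgeR against a background of 0 genes and DESeq2 against 0.410% of genes. At an unadjusted p under 0.05, limma had 0 of the 77 members, against 4.67% of all tested genes. The comparison could not resolve small shifts: the 95% interval of a member's log2 fold change had a median half-width of 0.577, or 1.49-fold, and it lay wholly within 1 log2 unit of 0 for 58 members.

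The signs leaned one way. The log2 fold change, lines labelled Rag1KO minus lines labelled WT, was negative for 62 of the 77 members, or 80.5%, against 8071 of the 16137 tested genes. Its median was -0.20 over the members, a fold of 0.871, against -0.0003 over all tested genes. Leaving out WT 6, 58 of the 77 were negative against 8421 of the 16137 genes, with a median of -0.17 for the members and -0.02 for all genes. Members of a complex are not independent of each other and the lines' library composition is shared by all of them, so the count describes these 6 lines. The sign was negative under every left-out library for 44 members and positive under every one for 3, and it changed for the other 30.

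**Figure D3:**
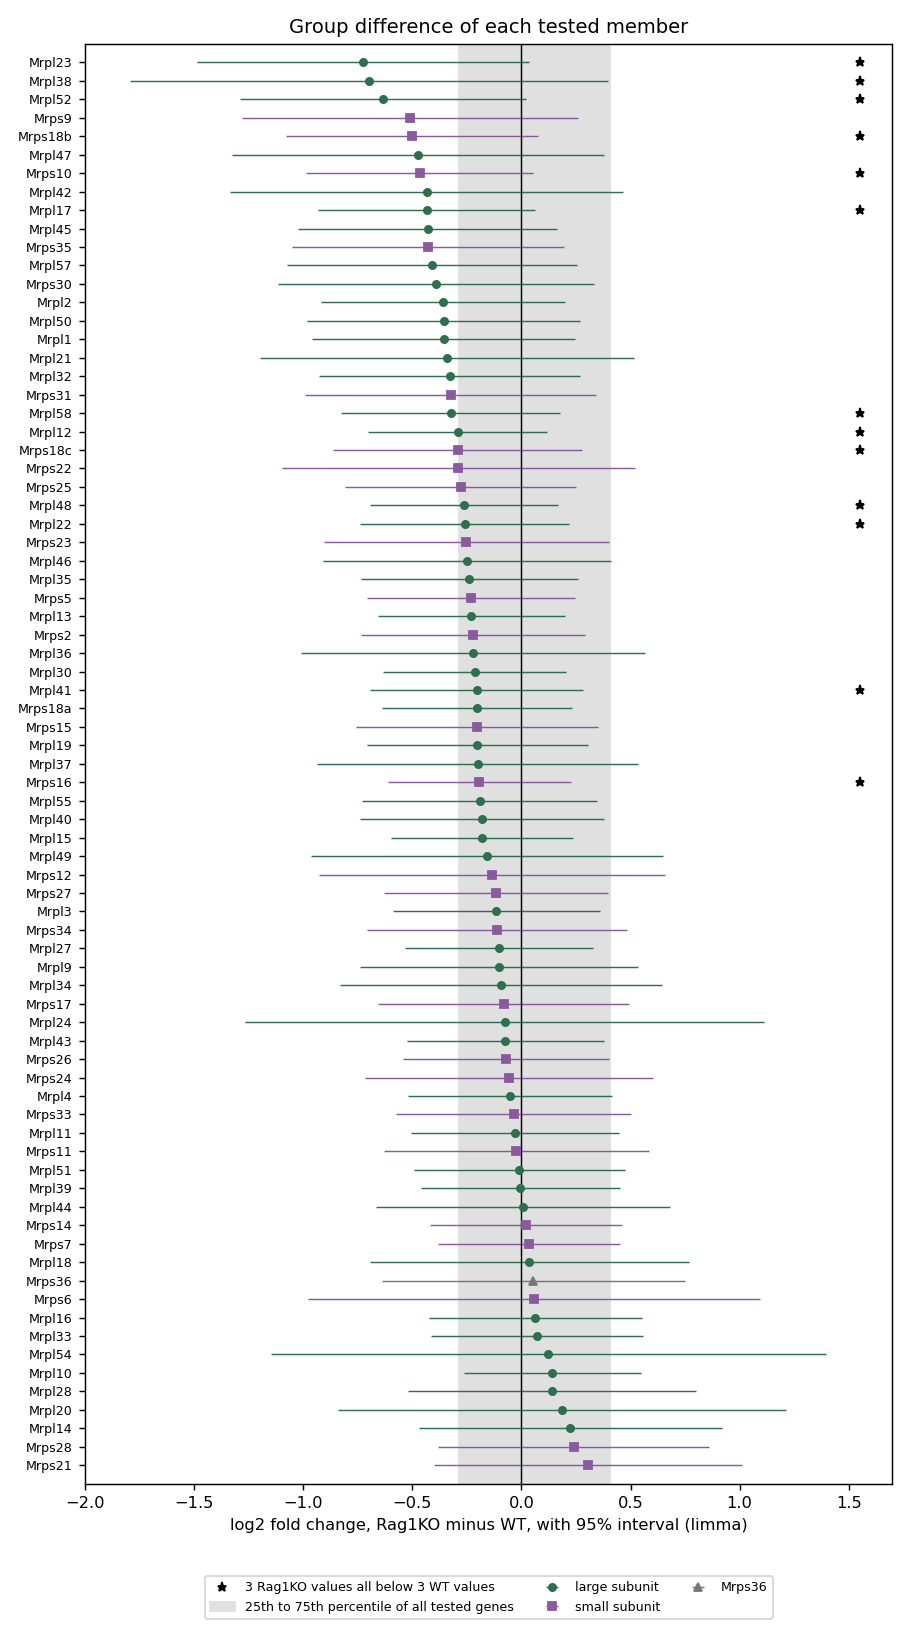
Log2 fold change of each of the 77 tested members (rows), lines labelled Rag1KO minus lines labelled WT, with its 95% interval from limma on the x axis, coloured by subunit; the grey band runs from the 25th to the 75th percentile of all tested genes and stars mark members whose 3 Rag1KO values all lie below the 3 WT values. Points run from -0.72 for Mrpl23 to 0.30 for Mrps21, and every interval includes 0.

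In 13 members, or 16.9%, every line labelled Rag1KO was below every line labelled WT, against a background of 6.49% of all tested genes. The reverse was seen in 0 members, against 5.60%. Without WT 6, the separation downwards covered 17 members, or 22.1%, against 11.2% of genes, and upwards 1 member, or 1.30%, against 9.40%. None of the separated members passed the adjusted test.

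Among them Mrpl52 had the lowest p. This mitochondrion-specific protein sits in the central protuberance, the crown of the large subunit that faces the small one. Mrpl52 (ENSMUSG00000010406.12, chr14:54426909-54429756, mm10) had 1123, 1583 and 857 normalized counts in the lines labelled Rag1KO and 1667, 1780 and 1930 in the lines labelled WT. The groups averaged 1188 ± 367 in the lines labelled Rag1KO and 1792 ± 132 in the lines labelled WT (SD, n = 3 each). The log2 fold change was -0.64 with an SE of 0.27 (limma, adjusted p = 0.850). It was -0.42 without Rag1KO 7, -0.87 without Rag1KO 3 and -0.58 without WT 6.

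Other central protuberance members were in the same position. Mrpl58, a release factor relative that rescues stalled ribosomes and is built into the large subunit, had 1054, 1131 and 978 normalized counts in the lines labelled Rag1KO and 1167, 1246 and 1577 in the lines labelled WT. Mrpl48 had 1158, 1112 and 1190 in the lines labelled Rag1KO and 1286, 1528 and 1351 in the lines labelled WT. Its pseudogene Mrpl48-ps held 82.4 to 86.2 normalized counts in the lines labelled Rag1KO and 91.5 to 142 in the lines labelled WT. Mrpl38 was separated only by a narrow margin, 1363 in Rag1KO 3 against 1390 in WT 4, and its log2 fold change of -0.70 shrank to -0.19 without WT 6. Of the 9 central protuberance members 8 were negative, with a median of -0.25, and 4 were separated, 44.4% against 6.49% of all tested genes. Without WT 6, 9 of 9 were negative, with a median of -0.19, and 5 were separated, 55.6% against 11.2%. Over the whole family the separated shares were 16.9% with WT 6 and 22.1% without it. With 9 genes the share is coarse, and a difference from the rest of the family was not tested.

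The 6 members around the polypeptide exit, where new proteins leave the large subunit beside the inner membrane, had a median of -0.43, with 6 of 6 negative and 3 separated, 50% against 6.49% of all tested genes. Without WT 6 that median was -0.24, with 5 of 6 negative and 3 separated, against 11.2% of genes. The family's own separated shares were 16.9% with WT 6 and 22.1% without it. With 6 genes assigned by hand the share is coarse, and a difference from the rest of the family was not tested. Mrpl17 (ENSMUSG00000030879.10) had 1505, 1780 and 1751 normalized counts in the lines labelled Rag1KO and 2267, 1887 and 2706 in the lines labelled WT, a log2 fold change of -0.43 with an SE of 0.20 (limma, adjusted p = 0.850). Mrpl22 had 705, 799 and 722 in the lines labelled Rag1KO and 830, 932 and 904 in the lines labelled WT. Mrpl45, which tethers the ribosome to the inner membrane, overlapped between groups, with 1555, 1593 and 1810 in the lines labelled Rag1KO and 2145, 1732 and 2948 in the lines labelled WT. Mrpl47 also overlapped, at 471, 374 and 568 in the lines labelled Rag1KO and 446, 674 and 895 in the lines labelled WT.

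Mrpl23, the remaining separated member of the exit site, had the most negative log2 fold change of the family and is uncertain. It had 630, 816 and 971 normalized counts in the lines labelled Rag1KO and 1027, 1183 and 1855 in the lines labelled WT, a log2 fold change of -0.72 with an SE of 0.31 (limma, adjusted p = 0.850). Without WT 6 it was -0.47. The processed copy Mrpl23-ps1 had 359, 495 and 599 in the lines labelled Rag1KO and 593, 726 and 1133 in the lines labelled WT, with a log2 fold change of -0.73. How reads that match both copies were assigned is not given in the sources used here, so the level of Mrpl23 rests on that choice. Mrps36 has copies with reads too, Mrps36-ps1 with 225 to 317 normalized counts in the lines labelled Rag1KO and 175 to 328 in the lines labelled WT, and Mrps36-ps2 with 73.8 to 91.5 in the lines labelled Rag1KO and 49.3 to 112 in the lines labelled WT.

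Of the stalk proteins, Mrpl12 was separated and the others were not. Mrpl12 had 2350, 2327 and 2366 normalized counts in the lines labelled Rag1KO, a narrow range, and 2875, 2521 and 3276 in the lines labelled WT. Its log2 fold change was -0.29 with an SE of 0.17 (limma, adjusted p = 0.850). Mrpl10 had 2997, 3110 and 2827 in the lines labelled Rag1KO and 3072, 2416 and 2651 in the lines labelled WT, a log2 fold change of 0.14, which ran from 0.06 without WT 4 to 0.23 without WT 2. Mrpl11 had 1197, 1164 and 1444 in the lines labelled Rag1KO and 1161, 1292 and 1422 in the lines labelled WT, a log2 fold change of -0.03. The median of the 3 stalk members was -0.03 with 2 negative, or 0.04 with 1 negative without WT 6. The 1 separated member is 33.3% of them, against 6.49% of all tested genes. Without WT 6 it was again 1, against 11.2% of genes.

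Mrpl41, a mitochondrion-specific protein, was the last separated large-subunit member. It had 681, 663 and 683 normalized counts in the lines labelled Rag1KO and 819, 804 and 718 in the lines labelled WT. The difference was small but the lines labelled Rag1KO were close together, with an SD of 11.2 against 54.5 in the lines labelled WT. Its log2 fold change was -0.21.

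In the small subunit 4 of 26 members were separated, 15.4% against 6.49% of all tested genes. Without WT 6 these were 6 of 26, or 23.1% against 11.2%. Mrps10, a protein of the small subunit's head, had 1630, 1615 and 1225 normalized counts in the lines labelled Rag1KO and 2034, 1768 and 2364 in the lines labelled WT, a log2 fold change of -0.47 with an SE of 0.21 (limma, adjusted p = 0.850). Mrps16, a protein whose loss causes a mitochondrial translation defect in human patients, had 1338, 1332 and 1578 in the lines labelled Rag1KO and 1601, 1654 and 1587 in the lines labelled WT. The margin for Mrps16 was narrow, 1578 in Rag1KO 7 against 1587 in WT 6.

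The other separated small-subunit members belong to a trio of paralogues. Vertebrates have 3 copies of the bacterial S18 gene; the products of Mrps18b and Mrps18c are found in the small subunit and that of Mrps18a in the large one. Mrps18b had 2072, 2010 and 1860 normalized counts in the lines labelled Rag1KO and 2517, 2304 and 3810 in the lines labelled WT, a log2 fold change of -0.50, or -0.28 without WT 6. Mrps18c had 467, 423 and 481 in the lines labelled Rag1KO and 495, 570 and 619 in the lines labelled WT, a log2 fold change of -0.29. Mrps18a had 1639, 1704 and 1520 in the lines labelled Rag1KO and 1633, 2066 and 1926 in the lines labelled WT, and here the groups overlapped, with a log2 fold change of -0.20, or -0.13 without WT 4.

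**Figure D4:**
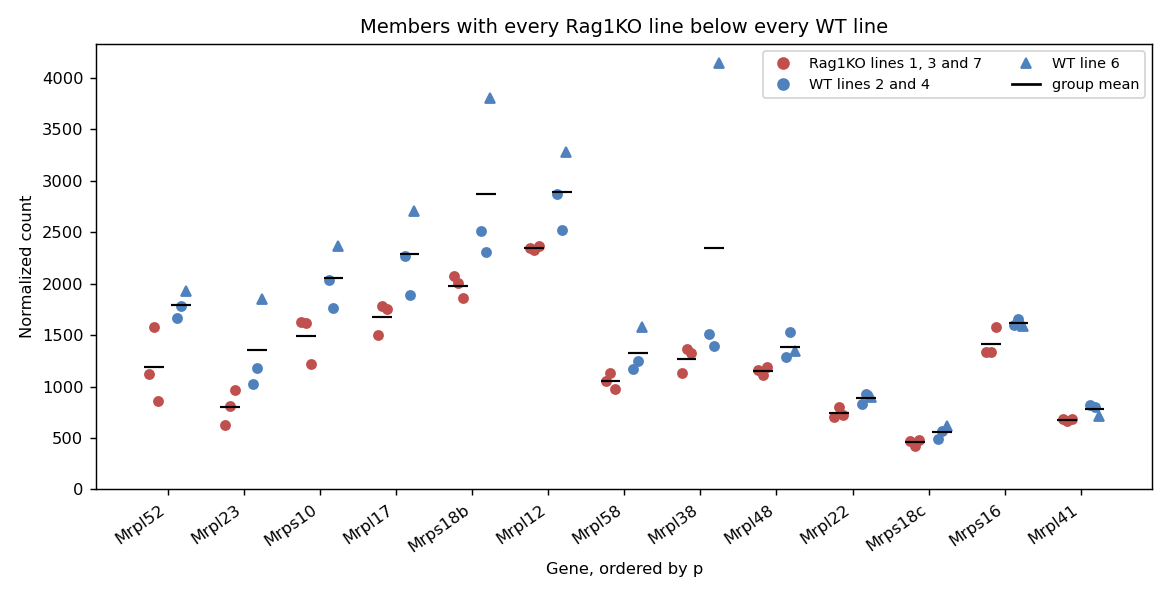
Normalized counts (y axis, linear, from 0) of the 13 members in which every line labelled Rag1KO (red, left) was below every line labelled WT (blue, right), in order of p from limma (x axis); triangles are WT 6 and dashes are group means. WT 6 is far above WT 2 and WT 4 for Mrpl38, at 4145, Mrps18b, at 3810, and Mrpl23, at 1855.

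The subunits as wholes differed little from each other in this comparison. The large subunit had 41 of 50 tested members negative and a median log2 fold change of -0.20, and the small subunit 21 of 26 and -0.16. Without WT 6 the large subunit had 36 of 50 negative and a median of -0.16, and the small one 21 of 26 and -0.19. The medians then stood in the opposite order. By descent, 26 of 28 tested mitochondrion-specific members were negative with a median of -0.25, against 36 of 48 members with a bacterial homologue and a median of -0.19. Without WT 6 these counts were 23 of 28 with a median of -0.19 and 34 of 48 with -0.16. The difference between these groups was not tested. The 6 members of the decoding centre and mRNA path had a median of -0.10, with 5 of 6 negative. Of them 0 were separated downwards, against 6.49% of all tested genes. Without WT 6 the median was -0.13, again with 5 of 6 negative and 0 separated downwards, against 11.2% of genes. With 6 genes, a count of 0 cannot be told from these background shares. Mrps12, at the decoding centre, had 512, 1037 and 797 normalized counts in the lines labelled Rag1KO and 940, 855 and 699 in the lines labelled WT.

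A minority of members, 15 of 77, had a positive log2 fold change. The largest was 0.30 for Mrps21, with an SE of 0.29 (limma, adjusted p = 0.850). Mrps21 had 1470, 1263 and 1503 normalized counts in the lines labelled Rag1KO and 1279, 1482 and 782 in the lines labelled WT, and the low value was that of WT 6, without which the difference was 0.03. Mrps28 had 905, 571 and 726 in the lines labelled Rag1KO and 587, 621 and 626 in the lines labelled WT, a log2 fold change of 0.24, which was 0.08 without Rag1KO 1, its highest line, 0.41 without Rag1KO 3 and 0.26 without WT 6. Mrpl14 had 1260, 1208 and 1312 in the lines labelled Rag1KO and 1155, 1444 and 751 in the lines labelled WT. Its log2 fold change of 0.22 became -0.04 without WT 6. Mrpl10, Mrps21 and Mrps28 were the 3 members that stayed positive whichever library was left out.

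Genes next door to the members gave a mixed picture. Within 1 kb of a member's start, 33 members had a protein-coding gene starting on the other strand, 18 of them divergently. Leaving out Mrps11 and Mrpl46, which are partners of each other, 29 tested partners lay outside the family. In 14 of these 29 pairs both genes were negative. Of the partners 16 were negative, against 8071 of the 16137 tested genes. limma called 0 partners, against 0.00620% of all tested genes. Ppp1r10, which starts 45 bases from Mrps18b, had 3610, 4399 and 3315 normalized counts in the lines labelled Rag1KO and 4443, 3474 and 3100 in the lines labelled WT, overlapping where Mrps18b did not. Helq, 29 bases from Mrps18c, had 686, 390 and 483 in the lines labelled Rag1KO and 642, 567 and 1153 in the lines labelled WT. Fau, a cytosolic ribosomal protein gene 59 bases from Mrpl49, had 15797, 14284 and 21052 in the lines labelled Rag1KO and 16617, 19644 and 31721 in the lines labelled WT. Mrpl49 itself had 1408, 1155 and 2181 in the lines labelled Rag1KO and 1493, 1410 and 2333 in the lines labelled WT.

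Mrps11 and Mrpl46 are the members that start head to head, 412 bases apart with partly overlapping exons. Mrps11 had 568, 597 and 843 normalized counts in the lines labelled Rag1KO and 647, 666 and 697 in the lines labelled WT. Mrpl46 had 397, 444 and 569 in the lines labelled Rag1KO and 480, 542 and 648 in the lines labelled WT. Within each group the lines ranked alike for both genes, Rag1KO 7 and WT 6 being highest. Their log2 fold changes were -0.02 for Mrps11, with either sign when single lines were left out, and -0.25 for Mrpl46, which ran from -0.40 without Rag1KO 7 to -0.14 without WT 6.

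Proteins of the mitochondrial ribosome whose genes have other names were measured apart from the family. Of 5 such genes 3 were negative, with a median log2 fold change of -0.10, which turned to 0.07 without Rag1KO 1. Without WT 6 the median was -0.10, again with 3 of 5 negative. Ptcd3, a small-subunit protein, had 2769, 2182 and 2853 normalized counts in the lines labelled Rag1KO and 3027, 2978 and 3877 in the lines labelled WT. Dap3, a GTP-binding small-subunit protein, had 2725, 2493 and 4348 in the lines labelled Rag1KO and 2043, 3065 and 3217 in the lines labelled WT, with overlap.

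The factors that work on this ribosome had mostly negative signs too. Of 15 translation factors and mRNA-binding proteins of mitochondria 12 were negative, with a median of -0.25 and 5 separated downwards, 33.3% against the background of 6.49%, and limma called 0. Without WT 6, 14 of the 15 were negative, with a median of -0.29 and 8 separated downwards, 53.3% against 11.2%. Lrpprc, which stabilises mitochondrial mRNAs, had 4215, 3214 and 3455 normalized counts in the lines labelled Rag1KO and 5184, 5944 and 6816 in the lines labelled WT, a log2 fold change of -0.72 with an SE of 0.19 (limma, adjusted p = 0.850). Oxa1l, which inserts new proteins into the inner membrane at the exit site, had 2004, 2469 and 2376 in the lines labelled Rag1KO and 2624, 2957 and 3692 in the lines labelled WT. Tufm, the mitochondrial elongation factor Tu, had 2374, 3143 and 3532 in the lines labelled Rag1KO and 3565, 3775 and 4459 in the lines labelled WT.

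Ribosome assembly and rRNA modification factors had 19 of 27 negative and a median of -0.14, or -0.12 without WT 6, with 1 separated downwards, 3.70% against the background of 6.49%. Without WT 6, 3 were separated downwards, 11.1% against 11.2%, and 1 upwards, 3.70% against 9.40%. Mitochondrial tRNA synthetases and the amidotransferase had 13 of 20 negative and a median of -0.06, which was 0.05 without WT 6. Genes for mitochondrial DNA replication, transcription and RNA processing had 11 of 13 negative and a median of -0.17, or -0.11 without WT 6. Regulators of nuclear-encoded mitochondrial genes had 6 of 10 negative and a median of -0.13, or 0.06 without WT 6. Among them Myc had 3929, 3402 and 3322 normalized counts in the lines labelled Rag1KO and 4993, 3263 and 7282 in the lines labelled WT, and Nrf1 had 1817, 1396 and 1743 in the lines labelled Rag1KO and 1775, 1898 and 2828 in the lines labelled WT. Both were highest in WT 6, and for both genes the groups overlapped. Ppargc1b, the regulator with the lowest p by limma, was highest in WT 4, also with overlap. It had 35.5, 23.2 and 13.6 normalized counts in the lines labelled Rag1KO and 27.2, 131 and 111 in those labelled WT. In each of these lists limma called 0 genes.

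The mRNAs that the mitochondrial ribosome translates had the opposite sign with all lines in. Of the 13 mitochondrially encoded protein genes 12 were positive, with a median log2 fold change of 0.35, but this was 0.01 without WT 6, with 5 of 13 negative. Their summed level was 1127220, 920438 and 902047 normalized counts in the lines labelled Rag1KO and 907451, 994543 and 497405 in the lines labelled WT, where WT 6 was low. mt-Nd6, the only protein gene on its strand of mitochondrial DNA, was separated upwards with 604, 607 and 574 in the lines labelled Rag1KO and 467, 283 and 259 in the lines labelled WT (limma, adjusted p = 0.850). That is 1 of the 13 genes, 7.69% against 5.60% of all tested genes, with 0 separated downwards. Without WT 6, 1 was separated upwards, 7.69% against 9.40%, and 1 downwards, 7.69% against 11.2%. The mitochondrial rRNAs overlapped widely, mt-Rnr2 having 16259, 6224 and 14581 in the lines labelled Rag1KO and 13590, 17228 and 4167 in the lines labelled WT.

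The family was also set beside the nuclear respiratory chain and the cytosolic ribosome. Of 74 nuclear-encoded respiratory chain subunits 49 were negative with a median of -0.07, or -0.14 without WT 6, with 5 separated downwards, 6.76% against the background of 6.49%, and 2 of 74 upwards, against a background of 5.60%. Without WT 6, 17 of them were separated downwards, 23.0% against 11.2%, and 3 upwards, 4.05% against 9.40%. Of 78 cytosolic ribosomal proteins 75 were negative with a median of -0.42, or -0.37 without WT 6. Separated downwards were 29, or 37.2% against 6.49%, and upwards 0, against 5.60%. Without WT 6, 31 were separated downwards, 39.7% against 11.2%, and 1 upwards, 1.28% against 9.40%. The median of the mitochondrial ribosomal proteins, -0.20, lay between these values. No difference between the lists was tested, and limma called 0 genes in each. Rpl17 of the cytosolic ribosome had 24424, 25624 and 25514 normalized counts in the lines labelled Rag1KO and 31824, 41412 and 43181 in the lines labelled WT, with no overlap.

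**Figure D5:**
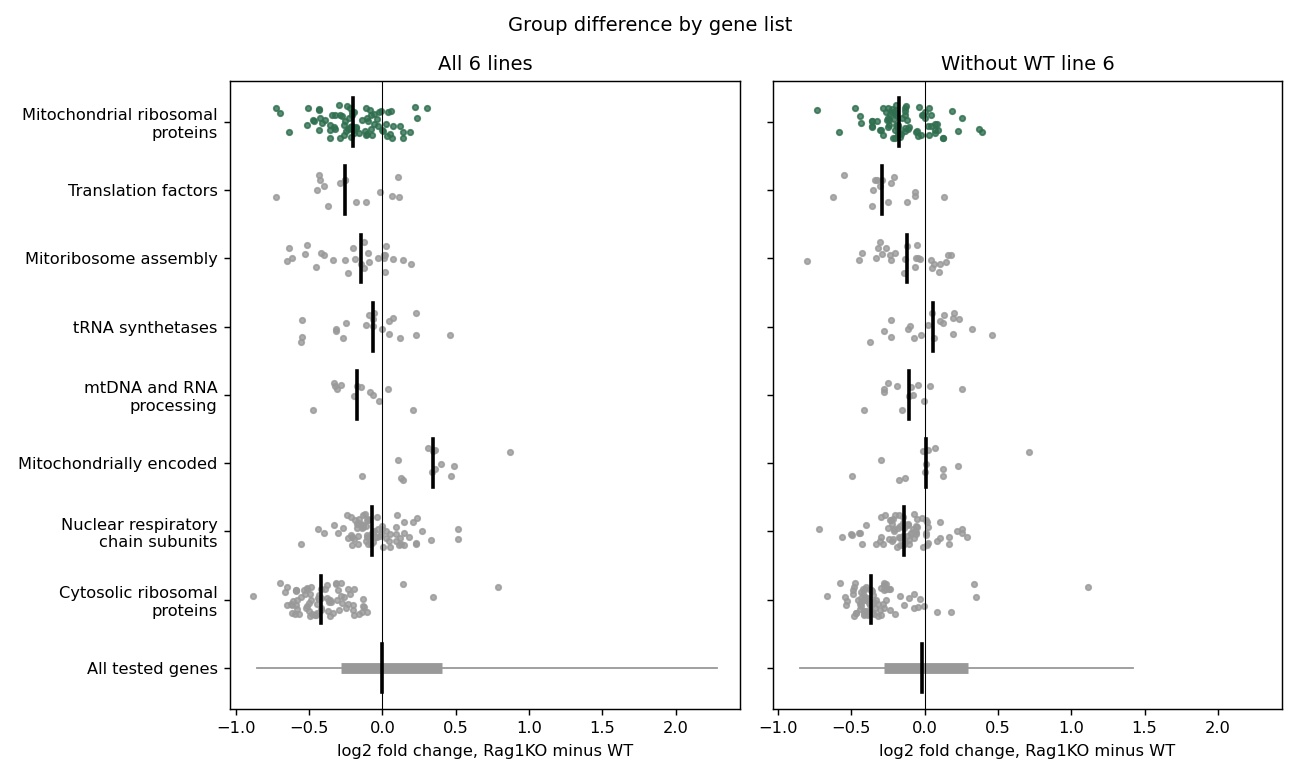
Log2 fold change (x axis), lines labelled Rag1KO minus lines labelled WT, of each tested gene (points, spread vertically at random) in the family (green) and in other lists (grey), with all 6 lines at left and without WT 6 at right; black ticks are medians, and the bottom row gives the 25th to 75th percentile (thick) and the 5th to 95th percentile (thin) of all tested genes. The family's median is -0.20 at left and -0.17 at right, while that of the mitochondrially encoded genes is 0.35 at left and 0.01 at right.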

How the data were processed

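RNA was measured in 6 libraries, 3 labelled Rag1KO and 3 labelled WT. The deposited values are a signal, 1 per gene and library, and each equals a whole number of reads, within 0.01 reads, divided by 1 size factor per library; the factors equal those of the median-of-ratios method. The submitters' processing notes list STAR 2.7.9a, Trim Galore 0.6.6, DESeq2 and FastQC and the build mm10, with no roles given; the read counter, its annotation and its use of strand are not given in the sources used here. The labels' protocols name RNeasy columns and the TruSeq Stranded kit.

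Genes were kept with edgeR's filterByExpr on the recovered reads, which left 16137. limma 3.58.1 was fitted to log2(value + 1) over all 6 libraries with a mean-variance trend and no covariate, for lines labelled Rag1KO minus lines labelled WT, two-sided, with Benjamini-Hochberg adjustment over all genes tested and a threshold of 0.05; intervals are at 95%. A fold change on this scale understates the change of low genes. Alternatives were edgeR 4.0.16 (quasi-likelihood, TMM) and DESeq2 1.42.0 on the recovered reads, on which all values came out whole in each library, TMM and library-size scaling, a pseudocount of 0.1, a minimum of 1 CPM in 3 libraries or no minimum in place of the filter, and each library left out in turn. The scripts were tested on simulated data. Depth was 55409583 to 62998051 reads per library, and limits on a count of 0 cover counting error only.

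Members, comparison lists and tests were chosen with earlier results of these data known; the respiratory chain and cytosolic ribosome lists were drawn by symbol pattern after the files were opened. Subunit, descent and region were assigned by hand from general knowledge. Members named in full were those of lowest p in each direction, those with separated groups, the 5 highest and 5 lowest per kilobase, the 5 most and 5 least variable, the Mrps18 paralogues, the stalk and Mrps36; any member could be named. All 78 members were matched by ID to GENCODE M21 for coordinates and lengths (mm10). Promoter sequences are RefSeq's, GRCm38.p6. Group shares and medians are descriptions with no test. Calculations used R 4.3.3 and Python 3.11.15.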

Additional observations from a re-analysis of the deposited data

How the results depend on the processing

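The number of members called was 0 under every alternative, the median log2 fold change of the members stayed between -0.18 and -0.20 under the other tools, scalings, pseudocount and filters, and 13 to 20 members were positive when single libraries were left out, with medians from -0.21 to -0.17. Small fold changes turned sign: Mrpl39 was 0.0019 by edgeR, 0.0010 by DESeq2 and 0.0080 with TMM scaling, and Mrpl54 was -0.046 by edgeR and -0.048 by DESeq2. With single libraries left out, log2 fold changes ran from -0.12 to 0.044 for Mrpl11, -0.037 to 0.43 for Mrpl14, -0.021 to 0.16 for Mrpl16, -0.24 to 0.41 for Mrpl20, -0.59 to 0.37 for Mrpl24, -0.061 to 0.38 for Mrpl28, -0.029 to 0.16 for Mrpl33, -0.093 to 0.090 for Mrpl39, -0.36 to 0.62 for Mrpl54, -0.042 to 0.084 for Mrps14, -0.18 to 0.23 for Mrps36, -0.32 to 0.39 for Mrps6 and -0.048 to 0.13 for Mrps7. Medians of other lists ran from -0.19 to 0.069 for proteins outside the naming pattern, -0.16 to 0.055 for tRNA synthetases, -0.37 to 0.061 for regulators, 0.0056 to 0.51 for mitochondrially encoded genes and -0.12 to 0.61 for mitochondrial rRNAs. The cause was not tested. In windows from 150 bases before to 50 bases after the start, the motif shares of members were 30.4% (ETS), 18.8% (NRF1), 15.9% (YY1), 4.35% (E-box), 44.9% (GC box) and 31.9% (CCAAT). Over tested genes the shares in these shorter windows were 15.8%, 9.04%, 4.75%, 7.93%, 59.1% and 31.2%, in the same order. No paired analysis was possible because the groups share no replicate number. Precision is limited by 3 lines per group and not by depth, since tested members had at least 323 reads in every library.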
